A study of Rattus norvegicus with 13 samples.

Results

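Neuropeptide genes were followed in rat pancreatic islets after virus transfer of a transcription factor, 6 in all: Nts (neurotensin), Penk (the enkephalin precursor), Gast (gastrin), Calcb (beta-calcitonin gene-related peptide), Cck (cholecystokinin) and Trh (thyrotropin-releasing hormone). They are 6 of the 12762 genes with a symbol on the array and are read by 7 of its 26962 probes that are not controls, since Penk has 2 probes and the others 1 each. The genes were chosen on their values in these arrays, so their own differences are given as a description and without p-values. Statements below that such a difference passed the limma threshold, or in how many settings, are description too. Genes picked for their differences pass more readily, so these counts are not a measure of robustness. A further probe named Trf, an older name of both Trh and the transferrin gene Tf, could not be assigned and was not counted. Its log2 ratios had group means of -2.56, -2.67 and -3.01 under bGAL, Nkx6.1 and Pdx1.

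Islets from male Sprague-Dawley rats of about 250 g were exposed to adenovirus at 5E9 particles per ml for 18 h. They were cultured for another 60 h, with about 200 islets per condition, at 8 mM glucose and 10% serum. All 3 groups received a virus whose cytomegalovirus promoter drives its insert in whichever islet cells take it up: AdCMV-bGAL carried the enzyme beta-galactosidase and was the control (5 arrays), AdCMV-Nkx6.1 carried the hamster form of Nkx6.1 (5 arrays) and AdCMV-Pdx1 the mouse form of Pdx1 (3 arrays). Islets without virus were not analysed here. The arrays of a group stand for separate islet isolations per the labels, and whether arrays of different groups share an isolation is not known here. The islet RNA was set against a commercial pool of rat RNA on the same spotted oligonucleotide array, and each value is a log2 ratio of islet over pool, so that 0 means equal signal in both.

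Nkx6.1 and Pdx1 are homeobox transcription factors of the developing pancreas and of mature beta cells. Neuropeptides are cut from larger precursors in the secretory pathway, stored in dense-core granules and released to act on G protein-coupled receptors. Many of their genes are used both by neurons and by endocrine cells of the gut and pancreas, so the islet is a tissue in which either source can contribute RNA.

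The arrays were not alike in completeness. On bGAL 1, 2, 3 and 5 and on Nkx6.1 1, 35.4% to 61.1% of probes were empty, against 0.23% to 15.5% on the other 8 arrays, which hold bGAL 4, the other 4 Nkx6.1 arrays and all 3 Pdx1 arrays. Nkx6.1 2 also stood apart, with correlations of 0.557 to 0.725 with the other arrays over shared probes. The Nkx6-1 probe averaged 3.72 ± 0.314 with the control virus (SD, n = 5), 3.19 ± 0.582 with Nkx6.1 (n = 5) and 3.08 ± 0.510 with Pdx1 (n = 3), but whether a rat probe reads the hamster insert is not known, and 0 probes were named Pdx1. The 5 beta-cell markers with a value on every array (Ins1, Ins2, Iapp, Slc2a2 and Slc30a8) were high throughout. Their mean log2 ratio was 4.55 to 5.15 on bGAL arrays, 4.47 to 6.54 on Nkx6.1 arrays and 4.61 to 5.28 on Pdx1 arrays. Mafa, the other beta-cell marker on the array, lay nearer the pool. Its only bGAL value was 0.79, and it averaged 0.29 on Nkx6.1 arrays and -0.12 on Pdx1 arrays.

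Of the 91 values that 7 probes could give on 13 arrays, 12 were empty. All 12 lay on the 5 arrays with many empty values and 0 on the other 8. A further 5 values lay within 0.01 of 0, where the signals of both channels cannot be told from equal background. Penk (probe R001308_01), Cck and Trh were complete on all 13 arrays.

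The stretches upstream of the transcription start are printed for the members for which RefSeq promoter sequences were at hand (rat build GRCr8, 250 bases each, 5′ to 3′ on the gene's strand, ending next to the start). They show the letters next to the start of a gene that was higher (Nts), lower (Gast) or overlapping (Trh) under Pdx1 against bGAL. Penk, Calcb and Cck were not among the entries used here. Capitals mark matches on either strand to TAAT, the core that homeodomain proteins share, and to TGANTCA, the AP-1 element. Each window spans chr7:39460889-39461138 (minus strand), chr10:85764966-85765215 (plus strand) and chr4:126301763-126302012 (minus strand) in that order.
Nts: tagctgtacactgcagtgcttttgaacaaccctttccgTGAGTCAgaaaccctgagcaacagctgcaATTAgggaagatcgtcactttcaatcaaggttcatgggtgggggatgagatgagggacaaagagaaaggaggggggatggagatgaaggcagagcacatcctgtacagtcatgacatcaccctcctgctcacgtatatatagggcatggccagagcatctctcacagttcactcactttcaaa
Gast: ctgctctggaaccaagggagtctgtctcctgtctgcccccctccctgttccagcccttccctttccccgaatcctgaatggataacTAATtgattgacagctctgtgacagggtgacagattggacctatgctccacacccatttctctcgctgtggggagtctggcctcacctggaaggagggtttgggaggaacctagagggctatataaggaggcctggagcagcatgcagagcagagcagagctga
Trh: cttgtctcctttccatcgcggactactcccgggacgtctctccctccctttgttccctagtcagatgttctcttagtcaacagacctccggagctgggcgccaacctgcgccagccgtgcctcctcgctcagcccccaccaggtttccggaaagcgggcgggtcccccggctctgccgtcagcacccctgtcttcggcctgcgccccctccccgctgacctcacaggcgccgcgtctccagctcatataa

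The Nts window holds 1 TAAT core, on the opposite strand and 183 bases upstream of the start, and 1 AP-1 element 212 bases upstream. The Gast window holds 1 TAAT core 164 bases upstream, and the Trh window holds 0. A TAAT core is present in 57.0% of the 33469 rat windows of this length and TGANTCA in 6.34%, so the first is the common case. The longer homeodomain site TAATTA (4.86% of windows) and the cAMP response element TGACGTCA (1.59%) were in none of the 3 windows. A match is a run of letters and not a measured site.

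Neurotensin, a peptide of hypothalamic neurons and of N cells of the intestine, gave the largest rise among the probes tested under Pdx1. With Pdx1 the Nts probe read 6.38, 6.83 and 6.26 on the 3 arrays. Under bGAL it was empty on array 1 and read -0.026, -0.0048, -2.18 and -0.69 on arrays 2 to 5. All Pdx1 values lay far above all bGAL values, and the widest gap among the Pdx1 arrays was small beside that distance. Under Nkx6.1 it was empty on array 1 and read -0.62, -3.31, -4.63 and -2.63 on arrays 2 to 5, below 0 on each array that had a value.

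The group means were 6.49 ± 0.3001 under Pdx1 (SD, n = 3), -0.72 ± 1.02 under bGAL (n = 4) and -2.80 ± 1.67 under Nkx6.1 (n = 4). Pdx1 exceeded bGAL by 7.21 (SE 0.804), a 148-fold higher ratio, and this was the largest rise among the 17965 probes tested. The Nkx6.1 minus Pdx1 difference was -9.28 (SE 0.804), the largest negative one of that comparison. Against bGAL the Nkx6.1 mean was lower by a log2 difference of -2.07 (SE 0.745), with overlapping arrays, and this did not pass the limma threshold.

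The size of the Nts rise depends on which control arrays are used. Within the 8 arrays with few empty values the control is bGAL 4 alone, and the differences were 8.67 for Pdx1 against bGAL and -0.62 for Nkx6.1 against bGAL. With the value of bGAL 3, which lay within 0.01 of 0, left out, Pdx1 exceeded bGAL by 7.45. Over 22 other settings the Pdx1 difference from bGAL ran from 6.50 to 8.97 and passed in 21, the exception being these 8 arrays alone, while the difference between the factors ran from -11.4 to -8.57 and passed in all 22. In bulk islet RNA, more cells of a type and more RNA per cell cannot be told apart for Nts or for any gene below.

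**Figure D1:**
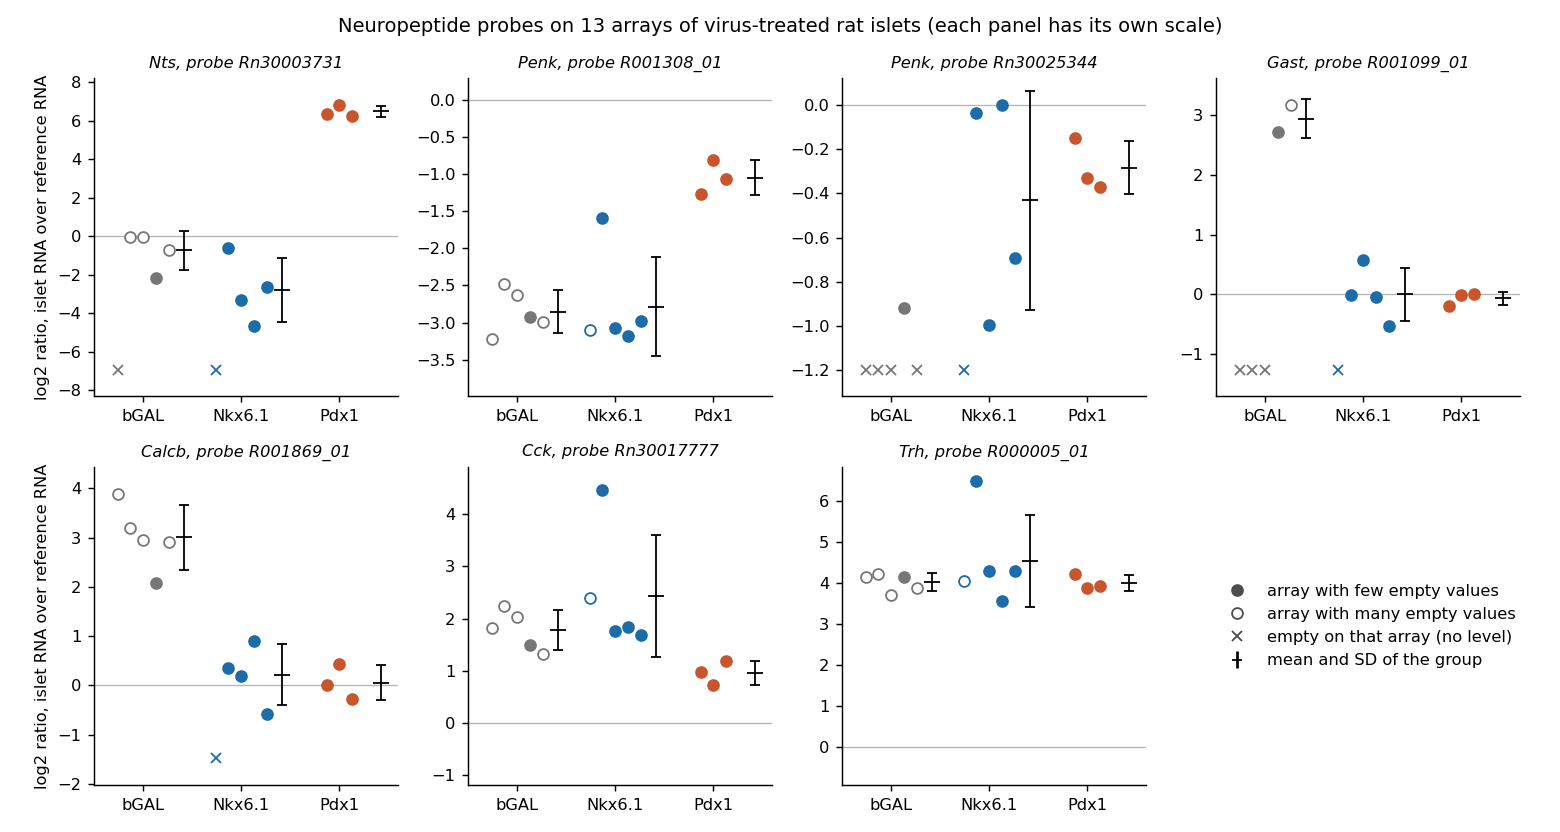
Log2 ratio of islet over reference RNA (vertical axis, a scale of its own per panel) for the 7 probes on the arrays of each group. Points are arrays, crosses are empty values placed below the data, and black marks give the group mean and SD. Nts at 6.26 to 6.83 under Pdx1 and Calcb at 2.07 to 3.896 under bGAL lie apart from the other groups, while Nkx6.1 array 2 is the highest of its group for Penk (first probe), Cck and Trh.

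Proenkephalin is cut into the enkephalins, short opioid peptides. Its probe R001308_01, listed under the older symbol Penk1, read -1.27, -0.81 and -1.06 under Pdx1. Under bGAL it read -3.22, -2.48, -2.64, -2.93 and -2.998 on arrays 1 to 5, and under Nkx6.1 -3.11, -1.59, -3.07, -3.18 and -2.98. Each Pdx1 array lay above each array of the other groups, with Nkx6.1 2 the nearest, and all values stayed below the reference pool.

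The Penk mean was -1.05 ± 0.233 under Pdx1 (SD, n = 3), -2.85 ± 0.296 under bGAL (n = 5) and -2.78 ± 0.670 under Nkx6.1 (n = 5). Pdx1 exceeded bGAL by 1.81 (SE 0.345, 3.50-fold), and within the arrays with few empty values by 1.88. This call passed in only 7 of 23 other settings although the difference stayed between 1.18 and 1.92. It did not pass when any of bGAL 1, 2, 3 and 5, Nkx6.1 3, 4 and 5 or the 3 Pdx1 arrays was left out, at differences of 1.69 to 1.92. Nkx6.1 differed from bGAL by 0.07, and by -0.23 without Nkx6.1 2. The Nkx6.1 minus Pdx1 difference was -1.74, which did not pass, and -2.04 without Nkx6.1 2, which did.

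The other Penk probe, Rn30025344, did not show this pattern. It had 1 bGAL value (-0.92, array 4), and its Nkx6.1 values of -0.036, -0.997, -0.0012 and -0.69 on arrays 2 to 5 spanned the Pdx1 values of -0.15, -0.33 and -0.37. It had too few values for the filter of 2 in every group. With 1 value per group allowed, Pdx1 was 0.64 above the single bGAL array and did not pass. All 8 of its values were held in exactly the same form by at least 1 other probe of the same array, and 0 of the 13 values of R001308_01 were.

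Gastrin, the acid-stimulating hormone of the stomach, is known to be made in the pancreas before birth and little in adult islets. Its probe had values on bGAL 4 and 5 only, at 2.71 and 3.17. On Nkx6.1 arrays 2 to 5 it read -0.0023, 0.57, -0.049 and -0.52, and on the Pdx1 arrays -0.19, -0.00050 and 0.0062. Both control values thus lay above all values under either factor, and 3 of the 5 control arrays said nothing about Gast.

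The Gast mean was 2.94 ± 0.325 for bGAL (SD, n = 2), -0.00016 ± 0.447 for Nkx6.1 (n = 4) and -0.061 ± 0.110 for Pdx1 (n = 3). The differences from bGAL were -2.94 for Nkx6.1 (SE 0.339, 7.67-fold lower) and -2.999 for Pdx1 (SE 0.357, 8.00-fold lower), and the factors differed by 0.06. Against bGAL 4 alone they were -2.71 and -2.77. Gast could not be tested without bGAL 4 or without bGAL 5, since too few control values were then left. It was also not tested among complete probes only or with values within 0.01 of 0 set to empty. In the 19 other settings where it was tested, the Nkx6.1 fall passed in 15 and the Pdx1 fall in 13. Neither passed in the 8 arrays with few empty values or when many against few empty values was a block in the fit, and the Pdx1 fall did not pass when any 1 of the 3 Pdx1 arrays was left out.

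The low Gast values were shared with other probes. All 7 values on the Nkx6.1 and Pdx1 arrays were identical, to every digit deposited, to those of 10 to 61 other probes of the same array, and the 2 bGAL values were shared with 0. Values held in common with 10 or more other probes made up 1.09% to 21.3% of an array. What gave many probes one value is not stated in the sources used here, so a log2 ratio near 0 for Gast cannot be taken as equal signal in islets and pool, and the 7.67-fold and 8.00-fold sizes are uncertain. For Nts, 4 of 11 values were shared, with 1 or 2 other probes each, on bGAL 2 and 3 and Nkx6.1 2 and 4, and 0 of the 3 Pdx1 values. Calcb, Cck, Trh and the first Penk probe had 0 shared values.

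**Figure D2:**
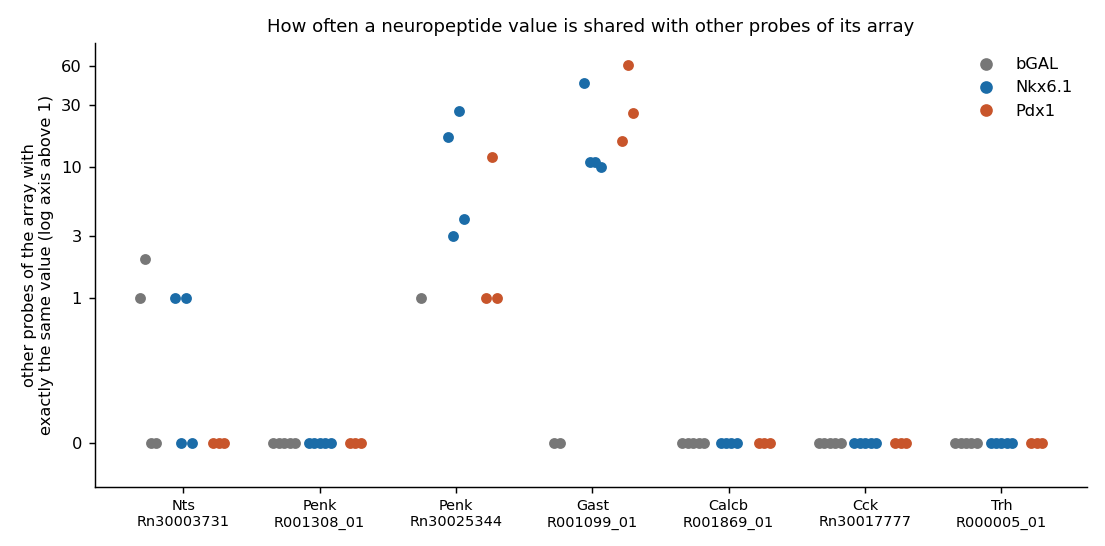
Number of other probes of the same array that hold exactly the value of the named probe (vertical axis, logarithmic above 1), 1 point per array with a value. Gast under Nkx6.1 and Pdx1 is shared with 10 to 61 probes, while Calcb, Cck, Trh and the first Penk probe are at 0 on every array.

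Calcb encodes a vasodilator peptide of sensory and enteric neurons. Its probe read 3.896, 3.20, 2.95, 2.07 and 2.92 on bGAL arrays 1 to 5. Under Nkx6.1 it was empty on array 1 and read 0.36, 0.19, 0.91 and -0.59 on arrays 2 to 5, and under Pdx1 it read 0.020, 0.44 and -0.28. Each control array lay above each array of both factors, the lowest control value being that of bGAL 4.

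The Calcb mean was 3.01 ± 0.655 for bGAL (SD, n = 5), 0.22 ± 0.617 for Nkx6.1 (n = 4) and 0.059 ± 0.361 for Pdx1 (n = 3). It was lower by 6.91-fold under Nkx6.1 (log2 difference -2.79, SE 0.375) and by 7.72-fold under Pdx1 (-2.95, SE 0.408), and the factors differed by 0.16. Against bGAL 4 alone the differences were -1.85 and -2.01. They were of the same size with that block in the fit and passed in neither setting. The Nkx6.1 fall passed in 19 of 22 other settings and the Pdx1 fall in 17, being lost also without Pdx1 1 (-2.93) or Pdx1 3 (-2.78). Both comparisons use the same 5 control arrays.

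The neighbour gene of the same family, Calca, which encodes calcitonin and the alpha form of the peptide, passed in neither comparison. On its more complete probe the differences from bGAL were -0.17 under Nkx6.1 and -0.25 under Pdx1 (limma adjusted p = 0.747 and 0.793). Within the arrays with few empty values they were 0.19 and 0.17. The other Calca probe, Rn30010255, had 1 bGAL value and was not tested, with differences of -1.10 under Nkx6.1 and 0.40 under Pdx1. The transcripts of both genes are alike in part, and whether their probes cross-hybridize was not tested.

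Cholecystokinin is a peptide of intestinal I cells and of many cortical neurons, and shares its active end with gastrin. Cck read 1.82, 2.24, 2.03, 1.501 and 1.31 on bGAL arrays 1 to 5, 2.40, 4.46, 1.76, 1.84 and 1.68 on the Nkx6.1 arrays, and 0.97, 0.73 and 1.19 on the Pdx1 arrays. The Pdx1 arrays were the 3 lowest of all 13, and Nkx6.1 2 was the highest.

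The Cck mean was 1.78 ± 0.379 for bGAL (SD, n = 5), 2.43 ± 1.17 for Nkx6.1 (n = 5) and 0.961 ± 0.229 for Pdx1 (n = 3). The difference was -0.82 for Pdx1 against bGAL (SE 0.527), 0.65 for Nkx6.1 against bGAL (SE 0.456) and 1.47 between Nkx6.1 and Pdx1 (SE 0.527). No Cck difference passed the threshold, although Pdx1 overlapped with neither other group. Across 23 other settings the Pdx1 difference from bGAL ran from -1.17 to -0.24. Without Nkx6.1 2 the Nkx6.1 mean exceeded bGAL by 0.14 and Pdx1 by 0.96.

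Trh encodes the hypothalamic peptide that drives release of thyrotropin, and in the rat it is also made by beta cells, most around birth. Trh read 4.14, 4.22, 3.72, 4.15 and 3.88 on bGAL arrays 1 to 5, 4.04, 6.49, 4.31, 3.56 and 4.30 on the Nkx6.1 arrays, and 4.22, 3.87 and 3.93 on the Pdx1 arrays. It was far above the reference pool everywhere, and the groups overlapped apart from the high value on Nkx6.1 2.

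The Trh mean was 4.02 ± 0.214 for bGAL (SD, n = 5), 4.54 ± 1.13 for Nkx6.1 (n = 5) and 4.01 ± 0.189 for Pdx1 (n = 3). Pdx1 and bGAL differed by -0.02 (SE 0.495), but by 1.67 after quantile normalization, which also took Nkx6.1 against bGAL from 0.52 to 1.90. Neither passed in any setting. Without Nkx6.1 2, Nkx6.1 exceeded bGAL by 0.029.

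Counted by gene, 2 of the 6 rose under Pdx1 against bGAL (Nts and Penk) and 2 fell (Gast and Calcb), where 0.44% of all probes tested rose, 0.106% fell and 0.546% passed in either direction. Under Nkx6.1 against bGAL 0 rose and 2 fell (Gast and Calcb), where 0.412% rose, 0.228% fell and 0.64% passed. Nkx6.1 was lower than Pdx1 for Nts only and higher for 0 of the 6, where 0.195% were lower, 0.0223% higher and 0.217% passed. Group values did not overlap for 2 genes between Nkx6.1 and bGAL, for 5 between Pdx1 and bGAL (all but Trh) and for 3 between the factors (Nts, Penk and Cck), against 7.73%, 19.5% and 12.1% of all probes. As the genes were picked on these contrasts, nothing is read from the counts.

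Without Nkx6.1 2, whose data stood apart, Gast and Calcb still fell under Nkx6.1 (-2.94 and -2.84). Among the peptide precursors, the genes nearest to the threshold on its inner side were Gast for Nkx6.1 (-2.94) and Penk for Pdx1 (1.81). On its outer side were Avp, the vasopressin precursor, for Nkx6.1 (2.04, SE 0.542) and Ghrl, the ghrelin precursor of islet epsilon cells, for Pdx1 (-2.34, SE 0.731).

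**Figure D3:**
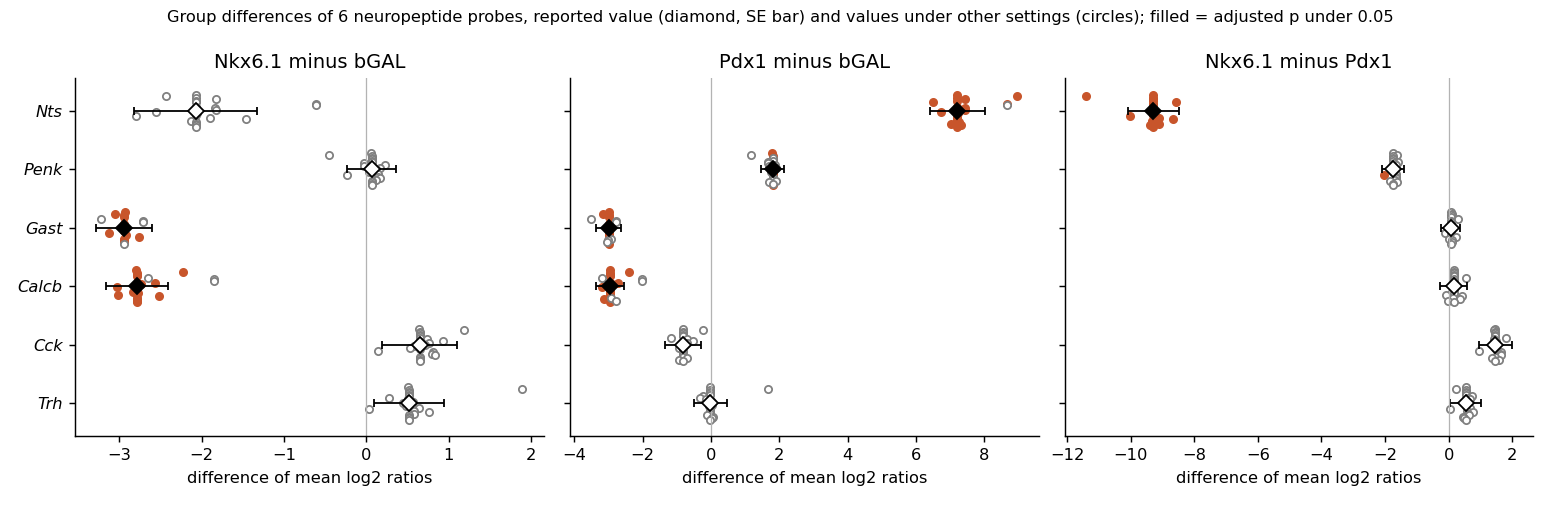
Difference of mean log2 ratios (horizontal axis) for the 6 tested probes in each comparison. Diamonds with SE bars are the reported differences, circles those under other settings, and filled symbols passed the threshold of 0.05 on the adjusted p. Nts under Pdx1 stays between 6.50 and 8.97, and Trh departs to 1.67 and 1.90 under quantile normalization.

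Other peptide precursors gave no call. A list of 61 further precursors had 47 on the array and 28 complete enough to test, of which 0 rose and 0 fell in each comparison with limma at an adjusted p under 0.05. At an unadjusted p under 0.05 there were 2 for Nkx6.1 against bGAL, 5 for Pdx1 against bGAL and 0 between the factors. Over all 17965 probes tested there were 2595, 2133 and 1231 in the same order. These are also the background for the unadjusted counts of the other lists and the markers below. The median differences of the 28 precursors were -0.11, -0.30 and 0.21, beside -0.08, -0.10 and 0.02 over all probes tested. Without Nkx6.1 2, 1 of the 28 passed for Nkx6.1 against bGAL: Sst, somatostatin of delta cells, at -1.80.

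The hormone genes of the main islet cell types were among those that did not pass. Iapp, the amylin gene of beta cells and a relative of Calcb, stood at 4.47 ± 0.442 for bGAL (SD, n = 5), 5.14 ± 1.31 for Nkx6.1 (n = 5) and 5.09 ± 0.291 for Pdx1 (n = 3). Sst differed from bGAL by -1.09 under Nkx6.1 (limma adjusted p = 0.417) and -0.63 under Pdx1 (adjusted p = 0.7998). Ghrl stood at 4.97 ± 1.19 under bGAL (n = 5), 4.05 ± 1.31 for Nkx6.1 (n = 5) and 2.63 ± 0.0448 for Pdx1 (n = 3), with limma adjusted p = 0.223 for Pdx1.

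Larger differences that did not pass were seen for a few more precursors. Avp stood 2.04 above bGAL under Nkx6.1 (limma adjusted p = 0.119) and 1.19 above under Pdx1 (adjusted p = 0.488). Edn1, endothelin 1, was -1.37 and -2.07 from bGAL under Nkx6.1 and Pdx1 (adjusted p = 0.417 and 0.342), but 1.20 and 0.50 within the arrays with few empty values. Under Pdx1 the differences were 1.30 for Nppb, a natriuretic peptide, -1.05 for Cartpt, an islet and hypothalamic peptide, and -1.14 for the tachykinin gene Tac3. Within the arrays with few empty values these were 0.04, -0.46 and -0.46, and Ghrl differed by 0.82 under Nkx6.1 and -0.52 under Pdx1.

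The opioid relatives of Penk were left out of the test by the filter of 2 values in every group. Pdyn, Pnoc and Pomc each had a value on 1 bGAL array only. Pomc, the precursor of corticotropin and beta-endorphin, read 2.94 on that array and averaged 0.062 ± 0.051 for Nkx6.1 (SD, n = 3) and 0.034 ± 0.047 for Pdx1 (n = 2). The single control value has no replicate. Under Nkx6.1 and Pdx1 the mean, SD, lowest and highest value of Pomc were identical to those of another peptide gene, Nppc. These low values therefore cannot be taken as levels of Pomc.

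**Figure D4:**
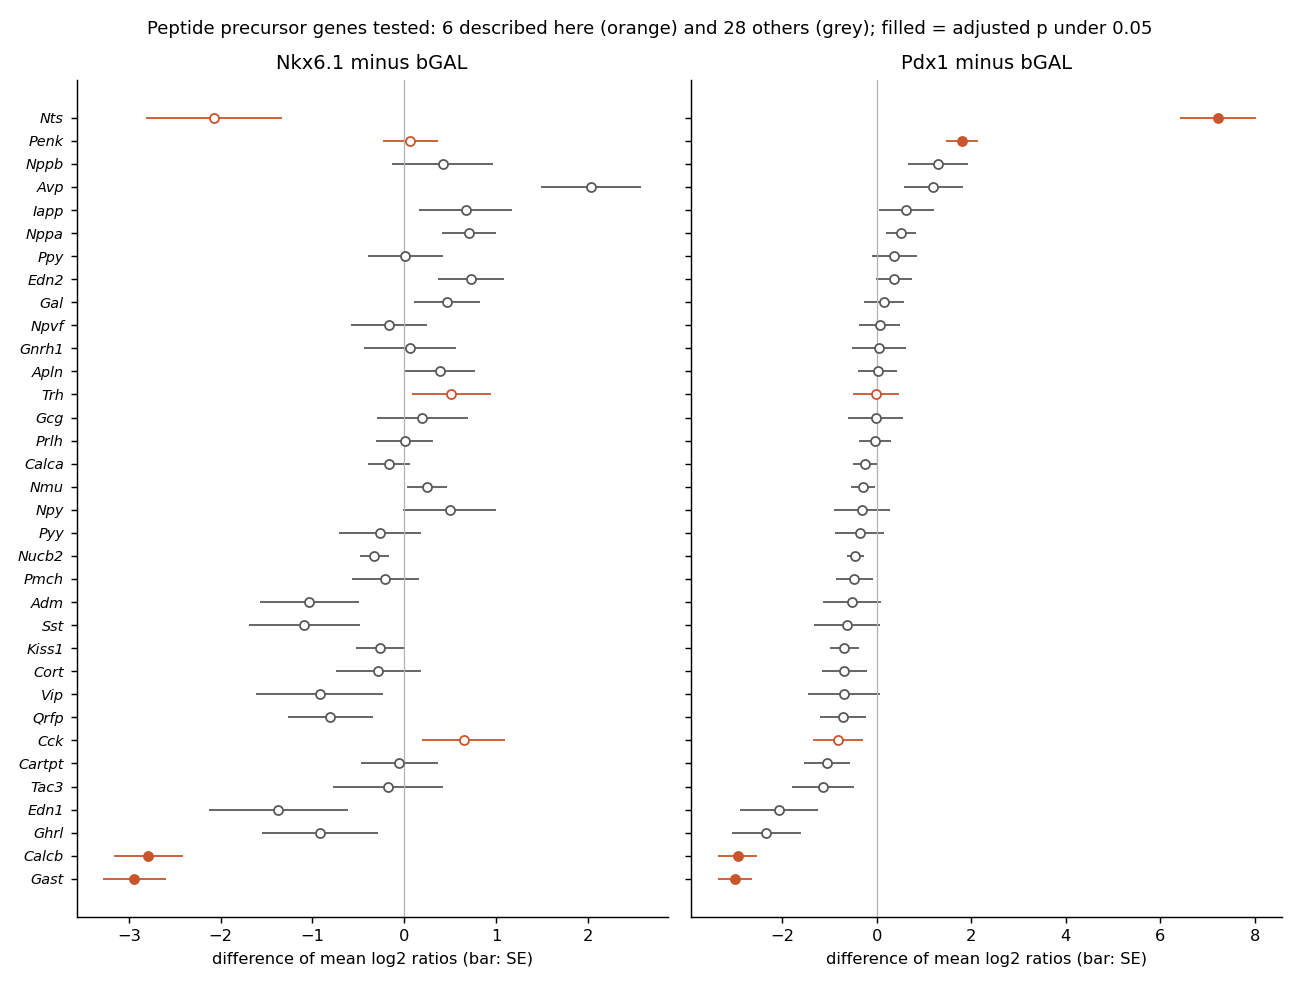
Difference of mean log2 ratios from bGAL (horizontal axes, bars are SE) under Nkx6.1 (left) and Pdx1 (right) for the 34 peptide precursor genes tested, ordered by the Pdx1 difference. The 6 genes described here are orange, the 28 others grey, and filled points passed the threshold. Only Nts, Penk, Gast and Calcb carry filled points.

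Receptors and the processing machinery gave 0 calls in the 3 comparisons, where 0.64%, 0.546% and 0.217% of all probes tested passed. At such shares 0 calls in these short lists is not read as a result. Of 15 receptor genes for the 6 peptides, 11 were on the array and 10 tested, with median differences of 0.20 under Nkx6.1 and -0.17 under Pdx1 against bGAL. At an unadjusted p under 0.05 there was 1 under Nkx6.1 and 0 under Pdx1. Calcrl, the receptor through which the Calcb peptide acts, differed by -1.34 and -0.86 and Trhr, the receptor for the Trh peptide, by -1.08 and -1.18. Within the arrays with few empty values these were 0.27 and 0.75 for Calcrl and -0.50 and -0.60 for Trhr. Calcr, the calcitonin receptor, was 0.93 higher under Nkx6.1 (limma adjusted p = 0.192).

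Among 15 enzymes and helpers that cut and modify precursors, 12 were tested and 0 passed, with 1, 1 and 0 at an unadjusted p under 0.05 in the 3 comparisons. Pcsk2, a main prohormone convertase, differed from bGAL by -0.79 under Pdx1 (limma adjusted p = 0.846). Tpst2, which adds the sulfate that cholecystokinin carries, differed by -0.65 under Nkx6.1 (adjusted p = 0.330). Qpct, which forms the blocked amino end that neurotensin, gastrin and thyrotropin-releasing hormone carry, was 1.31 higher under Pdx1 (limma adjusted p = 0.488), and the carboxypeptidase gene Cpd 0.97 higher (adjusted p = 0.457). Of 15 peptidase genes 12 were on the array and 10 tested, and 0 passed, with 0, 1 and 0 at an unadjusted p under 0.05. With 1 probe kept per gene, the largest differences from bGAL were 0.99 for Mme, neprilysin, under Nkx6.1 (adjusted p = 0.408) and 0.84 for Pgpep1, which removes that blocked end, under Pdx1 (adjusted p = 0.341). A second probe of Ide, insulin-degrading enzyme, differed by -2.09 under Pdx1 (adjusted p = 0.136), and the probe kept by -0.01.

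Markers of the cells that could supply these peptides were read on the same arrays. Of 49 markers tested from 12 cell classes, 0 passed between Pdx1 and bGAL with limma, where 0.546% of all probes tested did. At an unadjusted p under 0.05 there were 7, beside 2133 of all 17965 probes. Hhex and Rbp4, both of delta cells, were lower under Nkx6.1 than under bGAL (-1.65 and -2.84) and than under Pdx1. Of all probes tested, 0.228% and 0.195% were lower in these comparisons. The mean log2 ratio of the 3 delta markers was 2.34 to 2.64 on bGAL, 0.286 to 1.78 on Nkx6.1 and 2.41 to 3.14 on Pdx1 arrays. Under Pdx1 the 3 differed from bGAL in both directions, by 1.00 for Hhex, 0.11 for Rbp4 and -0.63 for Sst.

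Of 12 neuron markers 10 were tested and 0 passed, and the mean of the 4 complete ones (Stmn2, Snap25, Uchl1 and Gap43) was 2.596 to 3.34 on bGAL, 2.53 to 3.67 on Nkx6.1 and 2.64 to 2.91 on Pdx1 arrays. Nefm, a neurofilament gene picked here after its values were seen, stood at 8.42 ± 2.78 for bGAL (SD, n = 5), 3.93 ± 0.794 for Nkx6.1 (n = 4) and 4.97 ± 0.950 for Pdx1 (n = 3), with limma adjusted p = 0.112 and 0.296 against bGAL. Within the arrays with few empty values its differences were -1.58 and -0.30. Over the 10 neuron markers tested, the median difference from bGAL was -0.26 under Nkx6.1 and -0.21 under Pdx1. Th differed by -2.51 and -1.88, but by -0.14 and 0.34 within the arrays with few empty values. Not all neuron markers lay below bGAL. Tubb3 differed from bGAL by 0.42 under Nkx6.1 and 0.21 under Pdx1, and Elavl3 by 0.54 and 0.12. Nefl was above bGAL under Pdx1 only (0.68, and -0.37 under Nkx6.1). Ngfr, the one glial marker complete on all arrays, was 0.635 to 1.00 on bGAL, 0.203 to 2.80 on Nkx6.1 and 0.616 to 1.46 on Pdx1 arrays. The part of nerve or delta cells in the Calcb and Gast differences was not tested.

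Genes whose values ran most alike to each member over its arrays were ranked by Pearson's r, as a description. The arrays share their groups, so a gene that differs between the same groups scores high whatever the size of its difference. For Nts over 11 arrays these were Rtn1 (reticulon 1, r = 0.967), Enpp2 (autotaxin, which makes lysophosphatidic acid, r = 0.963), Ctsh (the protease cathepsin H, r = 0.946) and Smad2 (a mediator of TGF-beta signals, r = 0.944). Enpp2 averaged 5.11 under Pdx1, 2.68 under bGAL and 1.69 under Nkx6.1, and its arrays did not overlap between Pdx1 (4.95 to 5.24) and bGAL (2.196 to 3.27). Rtn1 averaged 4.45, 3.41 and 2.85 in the same order.

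**Figure D5:**
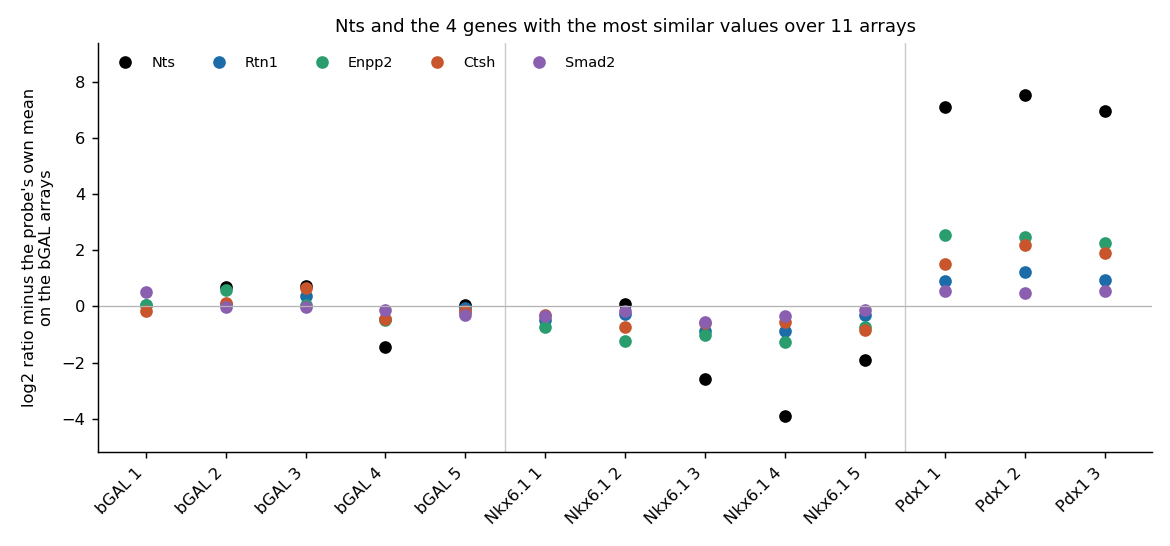
Log2 ratio of each probe minus its own mean on the bGAL arrays (vertical axis) on the 13 arrays, for Nts and the 4 genes with the most similar values over the 11 arrays where Nts has one. The 3 Pdx1 arrays are the highest for each gene but Smad2, for which bGAL 1 (-0.636 before subtraction) lies just above Pdx1 2 (-0.645), and Nts moves furthest.

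For Penk over 13 arrays the closest were Crisp1 (r = 0.964), Ift57 (0.932), Gpr37 (0.930) and the olfactory receptor gene Olr1428 (0.922). Gpr37, an orphan receptor gene, averaged -0.23 under Pdx1, -3.17 under bGAL and -2.49 under Nkx6.1. For Calcb over 12 arrays they were Atp6v1e1, a proton pump subunit (0.973), Irak1 (0.939), Klhdc8b (0.932) and Tyrobp (0.923). For Gast over only 9 arrays they were Rbm10 (0.965) and the sperm protamine Prm1 (0.960), then Epb41l4a (0.946) and Parp6 (0.945).

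For Cck and Trh the likeness rested on Nkx6.1 2. Cck was closest to Gpr179 (r = 0.954 over 13 arrays) and Trh to Fam151a (0.985), Bex2 (0.974) and Pcsk1n (0.969), the gene of a convertase inhibitor. Without that array the same values were 0.821 for Gpr179, 0.836 for Fam151a, 0.767 for Bex2 and 0.639 for Pcsk1n.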

How the data were processed

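Islet RNA (500 ng) was amplified and labelled with Cy5 and the reference RNA with Cy3, per the labels. The deposited values are log2 ratios, 1 per probe and array, with array medians near 0. Base 2 was inferred from the range of the values. The sources used here do not give the background correction, the normalization or the rule for empty values. Only ratios were used, so signal over background is unknown and the number of arrays limits precision.

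Of 26984 probes, 22 controls were left out. Of 15807 symbols, 12034 were current, 3713 were updated from older names, 40 were older names of several genes and 20 were not matched. limma 3.58.1 (R 4.3.3) was fitted to 17965 probes that had 2 or more values per group, as 1 model of 3 groups over 13 arrays, with two-sided tests and Benjamini-Hochberg adjustment at a threshold of 0.05. The code was run on simulated data with independent noise and a capped spread per probe. Some probes here spread more, so that run does not show the error rate on these arrays. The replicates of a group are separate islet isolations per the labels.

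The members and gene lists were chosen with earlier results of these data known. Named list genes are those past the threshold or the 3 largest differences per list and comparison. Per member the 4 most correlated genes were ranked, and all 4 are named except for Cck and Trh, where only the closest are. For a gene with several probes, the most complete was used. Markers are named as classes, and genes outside the rule are said to be so. The alternatives were other scaling, filters, variance models, blocks and leaving out arrays.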

Additional observations from a re-analysis of the deposited data

Results flagged for a closer look

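Dixon's test for a stray sample was run on 12 sets of 4 or 5 arrays of a member probe, and 3 stood out, all on Nkx6.1 replicate 2. Chance gives about 1 in 20. For Penk (probe R001308_01) this array read -1.5931, against -3.18 to -2.98 on the other 4 Nkx6.1 arrays. Cck read 4.4597 there, against 1.68 to 2.40. Trh read 6.4856, against 3.56 to 4.31. The same array stood apart over all probes, with correlations of 0.557 to 0.725 with the others. Without it the difference of Penk between Nkx6.1 and Pdx1 was -2.04 in place of -1.74.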

How the results depend on the processing

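For the members, 464 of 481 values under other settings moved by less than the spread between replicates and 17 moved by more. No called difference changed sign. Settings that change only the number of values required or the variance model, or leave out arrays of the third group, return the reported difference unchanged. The 464 include these, so the count is not a measure of stability. The number of probes past the threshold was less stable. For Nkx6.1 against bGAL it was 115 and became 46 after quantile normalization (24 higher, 22 lower, in place of 74 and 41), 66 with a variance trend, 13 with the array set as a block, 0 in the 8 arrays with few empty values (limma, 1140 at an unadjusted p under 0.05) and 26 when only the 2 groups compared were fitted. For Pdx1 against bGAL it was 98 and became 57 with a variance trend, 2 in the 8 arrays and 21 under the array set block. Quantile normalization left 80 there (56 higher, 24 lower, in place of 79 and 19). Between the factors it was 39, and 96 after quantile normalization (17 higher, 79 lower). Leaving out 1 array gave 39 (without bGAL 2) to 595 (without bGAL 4), 16 (without Pdx1 2) to 432 (without bGAL 4) and 14 (without Pdx1 2) to 81 (without Nkx6.1 2) in the 3 comparisons. With a replicate block the counts were 21, 22 and 19. Penk, Gast and Calcb then did not pass against bGAL, and Nts did under Pdx1. Replicate numbers were not taken as pairs: deviations of same-numbered arrays correlated at -0.239 to 0.475, over 0.1 in 2 of 11 pairs. These 2 were bGAL 1 with Nkx6.1 1 (0.475) and bGAL 4 with Nkx6.1 4 (0.329). Such correlations cannot show whether same-numbered arrays share an islet isolation, since the arrays also differ in completeness. The array set as a block moved the median difference of all probes by 0.10 and 0.12 against bGAL. The cause of these shifts was not tested. Added after seeing the data were the list counts without Nkx6.1 2, in the 8 arrays and under the array set block, which changed only the call of Sst, and the correlations without Nkx6.1 2. Only 1 bGAL array is among the 8.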
